A study of Mus musculus castaneus and Mus musculus domesticus and Mus musculus with 11 samples.

Results

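The genes described here encode the receptors for the fast transmitters glutamate, GABA and glycine. They were taken by symbol: the AMPA (Gria), kainate (Grik), NMDA (Grin), delta (Grid) and metabotropic (Grm) glutamate receptor genes, the alpha, beta and gamma subunits of the GABA-A receptor (Gabra, Gabrb, Gabrg), both GABA-B receptor genes (Gabbr) and the glycine receptor genes (Glra, Glrb). Of the 45 genes with such a symbol, 42 were found among the 27071 genes of the count matrix, namely 24 glutamate, 13 GABA and 5 glycine receptor genes. Grik2, Grin2a and Gabra5 were not analysed here. After the filter on low counts, 39 of the 42 entered the tests, beside 14839 tested genes in all; Grm6, Gabra6 and Glra4 were below the filter.

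Glutamate excites neurons through AMPA, kainate and NMDA receptors, which are cation channels assembled from several subunits, and modulates them through metabotropic receptors that couple to G proteins. GABA and glycine open chloride channels that are likewise assembled from subunits, and GABA also acts through the GABA-B receptor, a heterodimer coupled to G proteins. Spinal motor neurons receive glutamatergic, GABAergic and glycinergic input, so all of these families are known in them, and subunit composition sets calcium entry, kinetics and drug sensitivity of the channels.

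RNA was measured in motor neurons differentiated in culture from mouse stem cells of 3 lines, with 3 libraries per line. The 129 line has the 129S6/SvEv background (Mus musculus domesticus), the CAST line has the CAST/EiJ background (Mus musculus castaneus), and the hybrid line, titled 129CAS and described as CASTx129, carries both genomes; which parent was the mother is not stated. The labels give no treatment, time point or sex. They also leave unstated whether a line's libraries are separate differentiations or clones, and the p-values then reflect only how these samples spread, which may be technical. CAST was compared with 129, and the hybrid line with each parent and with the midparent, which is the mean of the 129 and CAST log2 levels. Because the libraries came from whole cultures, fewer cells of a type and less RNA per cell cannot be told apart.

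The libraries held 7763077 to 18167577 counts, and the receptor genes took 0.0974% to 0.370% of them. Summed levels, in CPM (counts scaled to library size), of 11 pan-neuronal markers ran from 5190 to 15052 CPM and those of 10 spinal motor neuron markers from 531 to 3458 CPM. The defining motor neuron genes were read in every library, with Isl1 at 13.1 to 62.7 CPM, Chat at 5.52 to 28.4 CPM and Mnx1 at 0.495 to 4.88 CPM. Fibroblast and mesenchyme markers (8 genes) ran from 461 CPM in CAST 1 to 19098 CPM in hybrid 1. The level also moved with transcript length: the log2 level relative to the other libraries changed per doubling of exon length by -0.49 in CAST 1, -0.60 in hybrid 2 and -0.25 in hybrid 3, against 0.066 to 0.307 in the other libraries. The tested receptor genes have a median exon length of 6658 bases, against 4368 for all tested genes. The part of cell makeup and transcript length in the results below was not tested beyond the values given beside them.

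The hybrid libraries stood apart from both parental lines in a further way. Among the 492 tested genes with more than 30% of their exonic bases under an exon of a gene on the opposite strand, 32.1% were called higher in hybrid than in 129 (edgeR, adjusted p under 0.05), against 3.30% of the 10110 genes with no such overlap. For overlap on the same strand the shares were 50.7% of 306 genes and 4.31% of 13555 genes. Shares called lower in hybrid than in 129 also differed by overlap. With more than 30% and with none they were 5.69% and 1.31% for the opposite strand and 3.92% and 1.32% for the same strand. In CAST against 129 the shares called higher were 0.203% and 0.445% for the opposite strand and 0.980% (3 genes) and 0.376% for the same strand, and those called lower for the same strand were 1.96% (6 genes) and 0.487%, each with more than 30% overlap first and with none second. In addition, 37 genes had 0 counts in all 6 parental libraries and at least 10 CPM in every hybrid library, and 17 genes had the reverse. For the parental lines only the counterpart of the reverse was counted. With 0 counts in 129 and at least 10 CPM in every other library there were 0 genes, and with 0 counts in CAST there was 1 gene. How reads were assigned to genes is not given in the sources used here, so the hybrid genome and a difference in counting cannot be told apart for genes that overlap others. Of the 39 tested receptor genes, 21 have no exonic overlap with another gene.

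**Figure D1:**
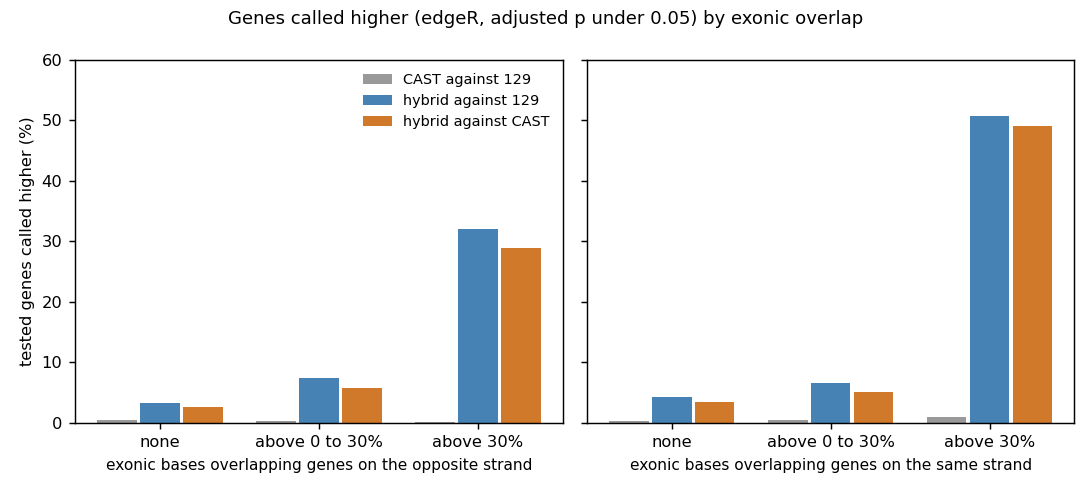
Share of tested genes called higher (percent, edgeR adjusted p under 0.05) by the part of their exonic bases that overlaps another gene on the opposite strand (left) or the same strand (right), for 3 comparisons. In both hybrid comparisons the bars rise with overlap, to 32.1% and 50.7% in hybrid against 129, while those of CAST against 129 stay under 1%, at 0.203% and 0.980% above 30% overlap.

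Of the 39 tested receptor genes, 0 passed in CAST against 129, and 1 gene, Grin3b, passed in each hybrid comparison, where it was higher in the hybrid line. Across all tested genes, edgeR called 0.917% in CAST against 129, 7.02% in hybrid against 129, 6.00% in hybrid against CAST and 7.34% in hybrid against the midparent. The receptor counts, as shares of 39, are below the background in all 4 comparisons. In CAST against 129, 2 receptor genes had an unadjusted p under 0.05 (background 14.6%), DESeq2 called 1 receptor gene (background 6.34%) and limma-voom called 0 (background 1.58%). In hybrid against 129, 8 receptor genes had an unadjusted p under 0.05 (background 22.2%), DESeq2 called 5 (background 14.2%) and limma-voom 1 (background 7.48%). In hybrid against CAST the counts were 3 unadjusted (background 15.8%), 2 by DESeq2 (background 10.8%) and 1 by limma-voom (background 6.56%). Against the midparent they were 5 unadjusted (background 18.4%), 4 by DESeq2 (background 12.1%) and 2 by limma-voom (background 7.75%).

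**Figure D2:**
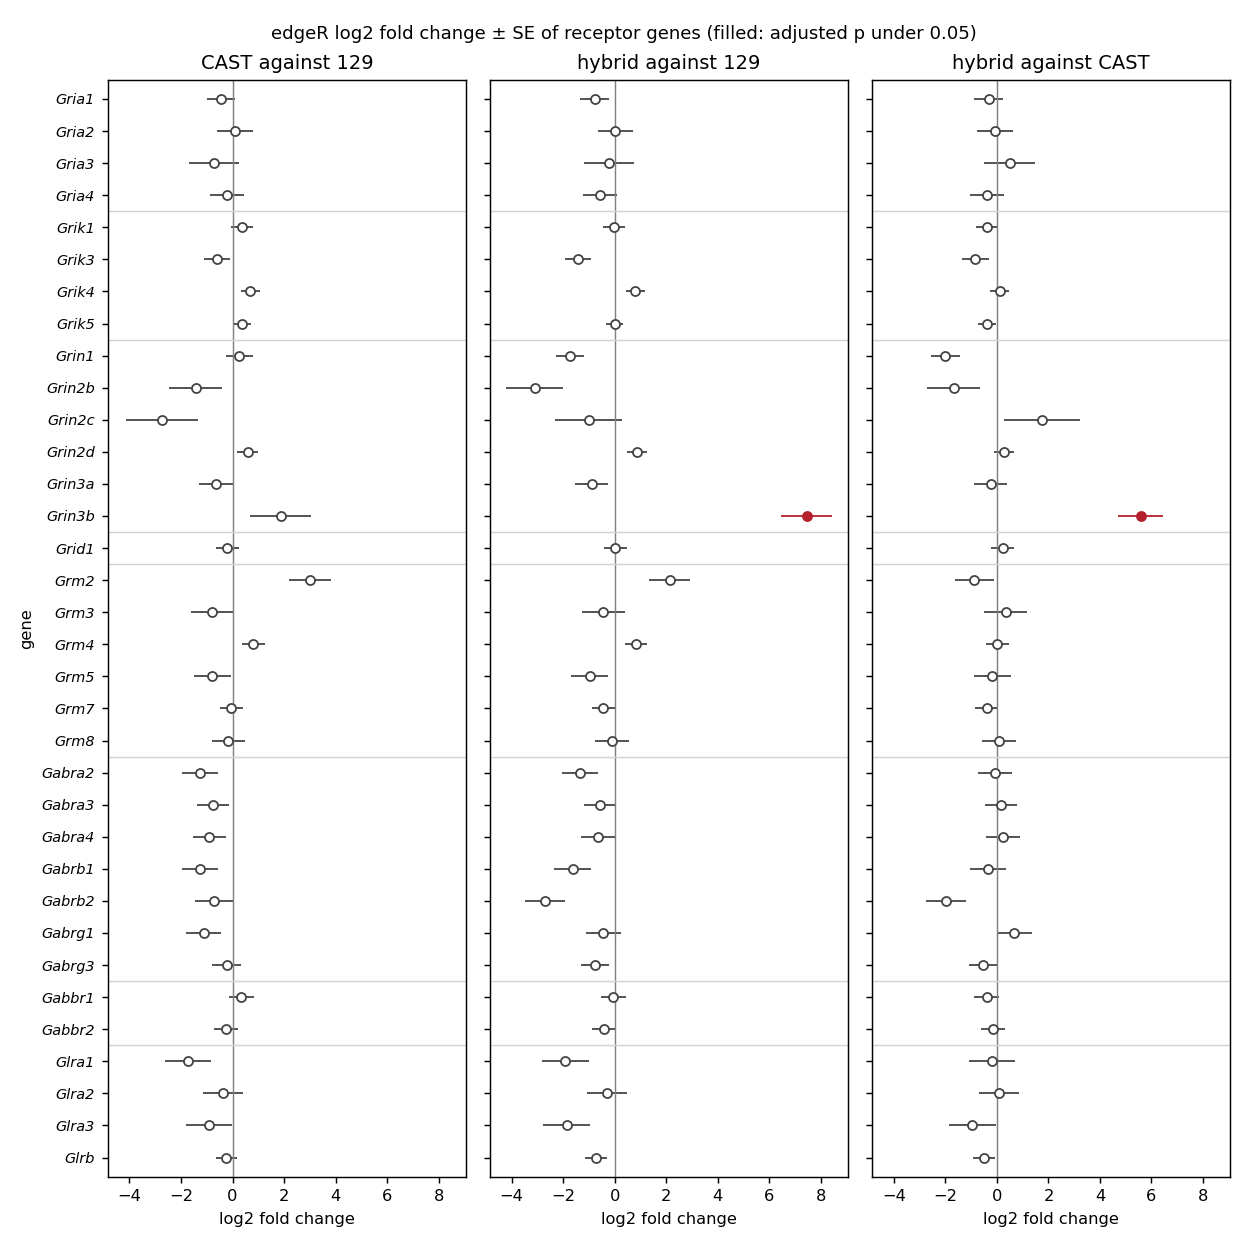
Fitted log2 fold change with its SE (edgeR) of 34 of the 39 tested receptor genes, grouped by family, in 3 comparisons. Grin3b, the only filled point, lies at 7.44 in hybrid against 129 and 5.57 in hybrid against CAST, and the GABA-A rows lie left of 0 in CAST against 129 and in hybrid against 129.

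By transmitter, most GABA and glycine receptor genes had values below 0 against 129, although no single one of them passed the test. Of the 12 tested GABA receptor genes, 1 had a positive log2 fold change in CAST against 129 (median -0.73) and 0 in hybrid against 129 (median -0.77). The 4 tested glycine receptor genes were negative in both, with medians of -0.65 and -1.30. Of the 23 tested glutamate receptor genes, 10 were positive in CAST against 129 (median -0.16) and 8 in hybrid against 129 (median -0.22). With the exon length offset, which removes each library's trend of level on length, the glutamate medians changed sign to 0.24 and 0.09 (14 and 13 of 23 positive), while those of GABA were -0.68 and -0.55 (4 and 3 of 12 positive) and those of glycine -0.59 and -1.06 (0 of 4 in both); all tested genes were then at 0.13 and -0.05. In the fit without that offset, all 39 had medians of -0.38 and -0.57, beside 0.06 and 0.02 for all tested genes. Both comparisons share the 129 libraries, and the values depend on single libraries. Without 129 3 the medians over the receptor genes were 0.15 and -0.06, with 0.37 and 0.14 for glutamate and -0.23 and -0.30 for GABA, and for glycine 0.06 and -0.44 over 5 tested genes. Without CAST 1 the medians in CAST against 129 were 0.15 for glutamate (13 of 23 positive), -0.35 for GABA (3 of 12 positive) and -0.24 for glycine (2 of 5 positive). Without hybrid 3 those in hybrid against 129 were -0.49, -1.17 and -1.50. Leaving out each library in turn, the GABA median ran from -1.04 to -0.23 in CAST against 129 and from -1.17 to -0.30 in hybrid against 129. The 10 spinal motor neuron markers had medians near those of GABA in the same 2 comparisons, -0.73 (3 of 10 positive) and -0.77 (1 of 10 positive), and their part in the receptor values was not tested.

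The library 129 3 was the highest of the 129 libraries in 36 of the 39 tested genes (92.3%, against 44.7% of all tested genes), the exceptions being Glra1, Gria3 and Grin3b. CAST 1 was the lowest CAST library in 31 of 39 (79.5%, against 44.9% of all tested genes). In the hybrid line, hybrid 3 was the highest library in 24 of 39 (61.5%, against 22.8%). The summed receptor level followed this order, with 1639, 2219 and 3653 CPM in the 129 libraries, 1437, 2531 and 2261 CPM in the CAST libraries and 1605, 1056 and 2247 CPM in the hybrid libraries. The pan-neuronal markers summed to 5190, 7953 and 12708 CPM in 129, 15052, 9589 and 6761 CPM in CAST, and 5190, 9873 and 13461 CPM in hybrid, so they moved with the receptor sum within 129 but not within CAST, where CAST 1 held the most marker RNA and the least receptor RNA.

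**Figure D3:**
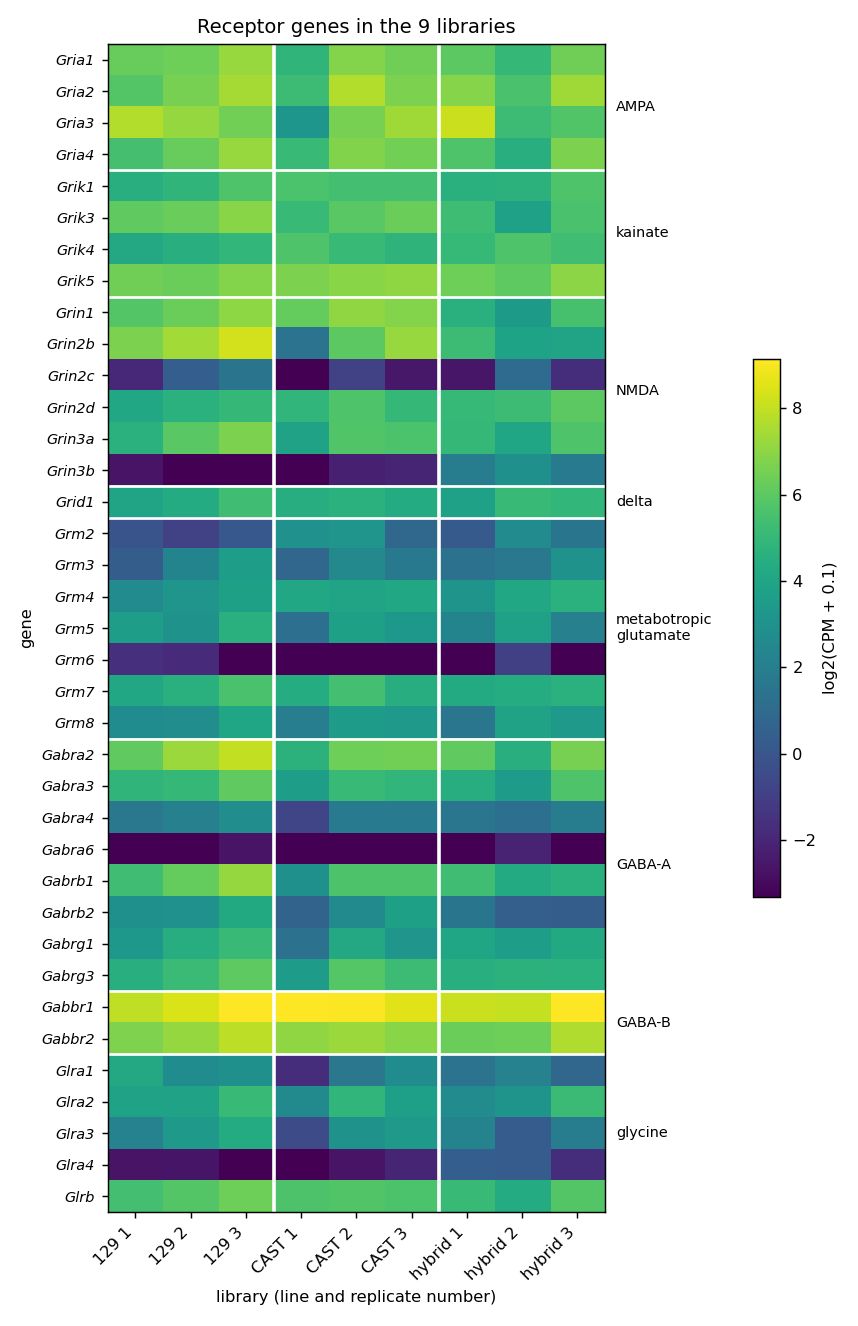
Map of log2(CPM + 0.1) for 37 of the 42 receptor genes in the 9 libraries, with genes grouped by family and lines separated by white bars. Gabbr1 is bright in every library, CAST 1 and hybrid 2 are dark for most long receptor genes, and Grin3b is dark in the 6 parental libraries and brighter in the 3 hybrid libraries.

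Among the AMPA receptor genes, which encode the main channels of fast excitation, all 4 were detected in every library, and 0 of 4 passed in any comparison by edgeR, DESeq2 or limma-voom, or had an unadjusted p under 0.05. Levels between genes are compared as CPM per kb of annotated exon, given as mean ± SD of 3 libraries. Gria1 (GluA1) stood at 17.1 ± 6.59 in 129, 12.5 ± 7.10 in CAST and 10.02 ± 4.49 in hybrid. Gria3 (GluA3, X-linked) stood at 14.9 ± 5.82, 9.04 ± 7.76 and 12.7 ± 14.0, and Gria4 (GluA4) at 14.0 ± 8.39, 12.2 ± 6.05 and 9.40 ± 6.44. Gria2, whose edited product GluA2 makes AMPA channels impermeable to calcium, was the lowest of the 4 in each line, at 6.95 ± 3.84, 7.45 ± 5.59 and 7.06 ± 3.81, although the spread of these levels overlaps between all 4 genes. Its share of the summed AMPA level was 12.5 ± 4.10% in 129, 17.8 ± 5.01% in CAST and 18.5 ± 4.48% in hybrid (SD, n = 3). With the longest coding transcript in place of all annotated exons, a length chosen after the data were seen, the shares were 13.7 ± 5.46%, 20.1 ± 6.13% and 20.0 ± 6.54%. The ranges of the lines overlap under both lengths.

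Gria3 varied more between libraries of a line than between lines. It read 205, 145 and 90.0 CPM in 129, 9.29, 96.4 and 162 CPM in CAST, and 284, 37.7 and 54.4 CPM in hybrid. The fitted log2 fold change was -0.72 ± 0.98 (SE) in CAST against 129 (edgeR adjusted p = 0.705), -0.22 ± 0.97 in hybrid against 129 (edgeR adjusted p = 0.895), 0.49 ± 0.98 in hybrid against CAST (edgeR adjusted p = 0.898) and 0.13 ± 0.84 against the midparent (edgeR adjusted p = 0.946). Unlike most members, it was highest in the 129 and hybrid libraries with the most fibroblast marker RNA (18049 CPM in 129 1 and 19098 CPM in hybrid 1), and the part of those cells in its level was not tested.

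Of the kainate receptor genes, Grik5, which encodes the auxiliary high-affinity subunit GluK5, was the most abundant per kb, at 18.0 ± 3.28 in 129, 23.2 ± 3.14 in CAST and 17.9 ± 5.95 in hybrid. It made up 49.2 ± 4.43%, 53.9 ± 3.40% and 52.8 ± 4.19% of the summed level of the 4 kainate genes analysed. Grik1 (GluK1) stood at 5.11 ± 2.32, 6.63 ± 0.432 and 5.06 ± 2.41 CPM per kb. Grik3 (GluK3) was 68.5, 79.4 and 120 CPM in 129, 33.9, 61.9 and 81.8 CPM in CAST and 38.7, 14.0 and 46.7 CPM in hybrid. All hybrid libraries were below all 129 libraries for Grik3, yet the difference did not pass (log2 fold change -1.43 ± 0.52, edgeR adjusted p = 0.152). Grik4, the other high-affinity subunit, went the other way, with 18.3, 22.4 and 30.4 CPM in 129, 52.7, 35.2 and 27.0 CPM in CAST and 32.3, 51.8 and 39.7 CPM in hybrid. Its hybrid libraries lay above the 129 libraries without overlap, and this also did not pass (0.80 ± 0.37, edgeR adjusted p = 0.237).

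The NMDA receptor genes held the 1 receptor gene that passed by edgeR. NMDA receptors need the obligatory subunit GluN1 together with GluN2 or GluN3 subunits, and GluN3B is a subunit known from somatic motor neurons. Grin3b, which encodes GluN3B (ENSMUSG00000035745, mm10 chromosome 10, 79970715 to 79977190, plus strand), had 1, 0 and 0 counts in the 129 libraries, 0, 2 and 2 in the CAST libraries and 52, 53 and 51 in the hybrid libraries. As levels these are 0.0556, 0 and 0 CPM in 129, 0, 0.112 and 0.143 CPM in CAST, and 3.68, 7.40 and 3.56 CPM in hybrid. All 3 hybrid libraries were therefore above all 6 parental libraries, in which the gene was at or near 0.

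The hybrid level of Grin3b over that of 129, taken from summed counts and library sizes, was 227-fold, with a 95% counting interval of 40.1 to 9021, since 129 held 1 count. Over CAST it was 45.4-fold (95% counting interval 17.4 to 169, from 4 counts). These intervals are exact binomial intervals and cover counting error only. The fitted log2 fold change was 7.44 ± 0.99 (SE) in hybrid against 129 (edgeR adjusted p = 0.00209), 5.57 ± 0.86 in hybrid against CAST (edgeR adjusted p = 0.00462) and 6.51 ± 0.69 against the midparent (edgeR adjusted p = 0.000368), and these fitted values depend on how edgeR treats counts near 0. The gene entered these tests only through the hybrid libraries, since each parental library held at most 2 counts and the filter asks for about 10, so a gene this low in the parents had to be high in hybrid to be tested at all. Without the filter the adjusted p-values by edgeR were 0.000865, 0.00273 and 9.55e-05 in the same order. In CAST against 129 the fitted value was 1.87 ± 1.17 (edgeR adjusted p = 0.457). The hybrid level was still only 1.48 ± 0.663 CPM per kb, below Grin1 (2.74 ± 1.77), Grin2d (6.78 ± 2.59) and Grin3a (2.71 ± 1.45) in the same line by mean, though within the spread of Grin1 and Grin3a. By mean it was above Grin2b (0.900 ± 0.501) and Grin2c (0.148 ± 0.209) in that line, with the spread of Grin2b overlapping its own.

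Grin3b is also one of the genes touched by the overlap described above. Of its exonic bases, 32.1% lie under exons of Tmem259 on the opposite strand, a gene expressed in every library, at 76.4, 76.3 and 65.7 CPM in 129, 233, 101 and 98.1 CPM in CAST and 77.5, 238 and 115 CPM in hybrid. Tmem259 itself overlapped between the hybrid and CAST libraries, and lay above the 129 libraries in hybrid by a small margin for hybrid 1. Whether the hybrid counts of Grin3b are transcripts of that gene or reads of its neighbour cannot be told apart, since the strand used in counting is not given in the sources used here. When only genes without exonic overlap were fitted, an alternative chosen after the data were seen, Grin3b left the set. Of the 21 remaining receptor genes, 0 passed in any comparison. Of all 9266 genes then tested, edgeR called 109 in CAST against 129, 90 in hybrid against 129, 113 in hybrid against CAST and 153 against the midparent. With so few calls over all genes, 0 of 21 shows nothing particular to the receptor genes.

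Grin1, encoding GluN1, had low hybrid values that did not pass the test. It read 56.0, 80.2 and 129 CPM in 129, 72.7, 133 and 113 CPM in CAST, and 23.6, 11.0 and 45.1 CPM in hybrid. Every hybrid library was below every parental library. The log2 fold change was -1.73 ± 0.55 in hybrid against 129 (edgeR adjusted p = 0.106), -2.0 ± 0.55 in hybrid against CAST (edgeR adjusted p = 0.0745) and -1.86 ± 0.51 against the midparent (edgeR adjusted p = 0.0598). DESeq2 called each of these (adjusted p = 0.0210, 0.00736 and 0.00242), and limma-voom called the last (adjusted p = 0.0328). Of the exonic bases of Grin1, 13.5% lie under exons of the antisense gene Grin1os.

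Grin2b, encoding GluN2B, the subunit of immature and extrasynaptic NMDA receptors, was 102, 170 and 309 CPM in 129, 2.58, 64.2 and 149 CPM in CAST, and 36.7, 14.8 and 15.5 CPM in hybrid. The hybrid libraries lay below all 129 libraries, while CAST spanned a range that reached below the hybrid libraries and into the 129 libraries. The difference of hybrid from 129 was -3.11 ± 1.10 (edgeR adjusted p = 0.143), and that of CAST from 129 was -1.43 ± 1.03 (edgeR adjusted p = 0.510). DESeq2 called the first of these (adjusted p = 0.0134). Grin2b is the longest receptor transcript here, at 24842 bases of exon, and CAST 1 and hybrid 2, where long transcripts were low, gave 2.58 and 14.8 CPM. Without both of those libraries edgeR called Grin2b lower in hybrid than in 129, with hybrid 3 (-0.25 per doubling of exon length) still in the fit. With the exon length offset edgeR did not call Grin2b in that comparison, and limma-voom did not call it in the main set (adjusted p = 0.214). The part of transcript length in the Grin2b values was not tested.

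Grin2d, encoding GluN2D, had 17.9, 24.7 and 31.9 CPM in 129, 29.0, 51.3 and 31.6 CPM in CAST, and 32.8, 37.7 and 64.8 CPM in hybrid. Its hybrid libraries lay above the 129 libraries (log2 fold change 0.86 ± 0.40, edgeR adjusted p = 0.240). Of the exonic bases of Grin2d, 9.66% lie under the antisense gene Gm45441. Neither Grin2b nor Grin2d passed by edgeR in CAST against 129 or in hybrid against 129. Their shares of the GluN2 level were looked at after the values of the genes were seen and are given with no test. Per kb, Grin2b made up 60.1%, 63.4% and 70.0% of the sum of Grin2b, Grin2c and Grin2d in the 129 libraries, 2.33%, 24.9% and 55.7% in the CAST libraries and 23.1%, 8.96% and 6.00% in the hybrid libraries. Grin2d made up 39.4%, 34.3% and 27.0% in 129, 97.7%, 74.2% and 44.2% in CAST, and 76.7%, 85.2% and 93.6% in hybrid. Grin2b thus held the larger part in all 129 libraries and in CAST 3, and Grin2d in the remaining CAST libraries and all hybrid libraries. With the longest coding transcript as the length, the mean Grin2d share was 37.4 ± 6.57% in 129, 74.6 ± 24.9% in CAST and 87.2 ± 7.45% in hybrid. The part of transcript length and of the exonic overlap of Grin2d in these shares was not tested.

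**Figure D4:**
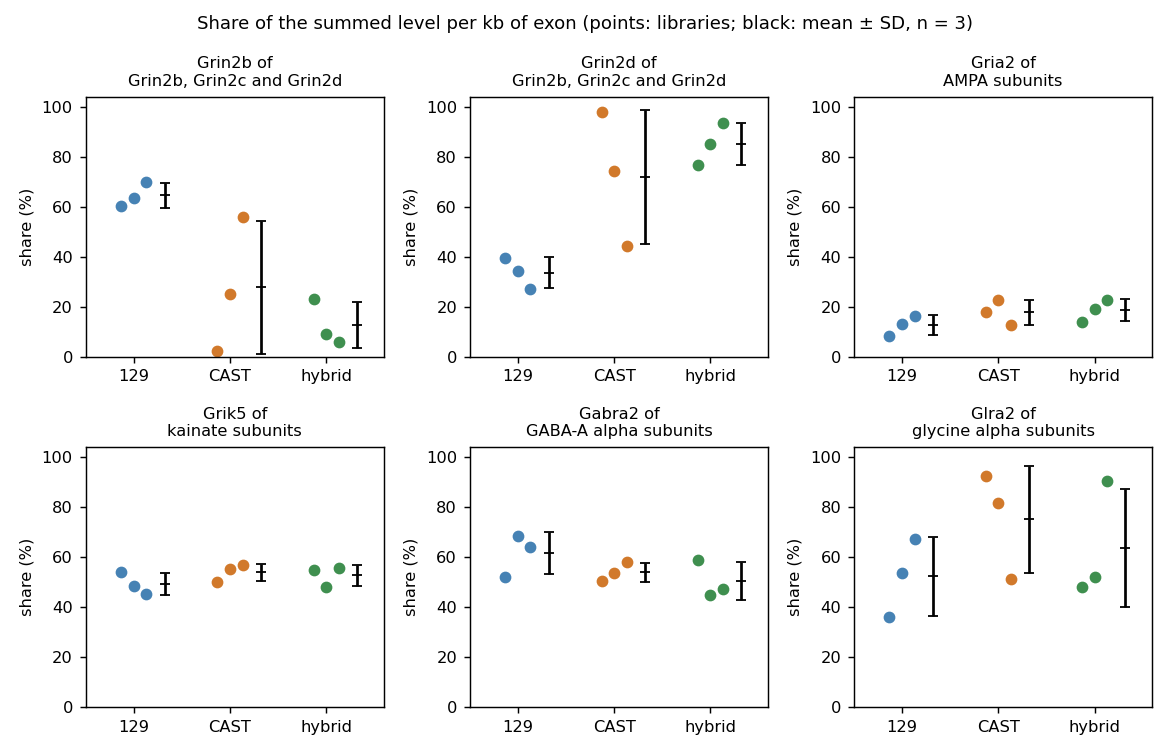
Shares of the summed level per kb of exon within 5 subunit groups (percent), by library and as mean ± SD of 3 libraries. Grin2d is at or below 39.4% in the 129 libraries and at or above 76.7% in the hybrid libraries, while Grik5 stays between 45.3% and 56.6% of the kainate subunits in all 9 libraries.

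Of the further NMDA and delta receptor genes, Grin3a (GluN3A, a juvenile subunit) stood at 5.06 ± 3.12 CPM per kb in 129, 3.21 ± 1.78 in CAST and 2.71 ± 1.45 in hybrid. Grin2c (GluN2C, known from cerebellar granule cells) was barely read, at 1.36 ± 1.27, 0.174 ± 0.241 and 0.745 ± 1.05 CPM. Grid1, which encodes an orphan delta receptor, stood at 4.26 ± 2.19, 3.71 ± 0.428 and 4.35 ± 1.75 CPM per kb. None of these 3 genes passed in any comparison by edgeR, DESeq2 or limma-voom.

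Of the 7 tested metabotropic glutamate receptor genes, 0 passed in any comparison by edgeR or limma-voom, and Grm2 had an unadjusted p under 0.05 and a DESeq2 call in CAST against 129 and in hybrid against 129. Grm5, a group I receptor coupled to phospholipase C, stood at 1.44 ± 0.787 CPM per kb in 129, 0.835 ± 0.562 in CAST and 0.745 ± 0.536 in hybrid. Group II and III receptors lower cyclic AMP and often act presynaptically. Among them Grm7 was the highest per kb, at 5.01 ± 2.73, 4.82 ± 2.07 and 3.67 ± 0.457 in 129, CAST and hybrid. Grm4 stood at 1.60 ± 0.589, 2.81 ± 0.236 and 2.85 ± 1.35 and Grm3 at 2.03 ± 1.90, 1.16 ± 0.674 and 1.48 ± 1.01 CPM per kb, so that Grm3 had the higher mean in 129 and Grm4 in CAST and hybrid. Grm8 stood at 0.985 ± 0.525, 0.876 ± 0.417 and 0.926 ± 0.597 CPM per kb. Grm6, the receptor of retinal ON bipolar cells, had 0 to 4 counts per library and was not tested.

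Grm2, a group II autoreceptor, read low in 129. It read 0.834, 0.427 and 0.977 CPM in 129, 7.74, 8.82 and 1.72 CPM in CAST, and 1.06, 6.29 and 2.73 CPM in hybrid. Both CAST and hybrid libraries lay above all 129 libraries. The log2 fold change was 3.01 ± 0.82 in CAST against 129 (edgeR adjusted p = 0.138) and 2.13 ± 0.81 in hybrid against 129 (edgeR adjusted p = 0.170), and DESeq2 called both (adjusted p = 0.00583 and 0.0495). Grm4 was also higher in every CAST library than in every 129 library, at 17.8, 15.2 and 17.4 against 6.45, 8.90 and 13.4 CPM (0.81 ± 0.44, edgeR adjusted p = 0.410). Libraries without overlap were met by 4 of 39 receptor genes in CAST against 129, Glra1 also among them, beside 28.6% of all tested genes. In hybrid against 129 this held for 11 of 39 (background 37.5%), 4 higher and 7 lower, in hybrid against CAST for 2 of 39 (background 19.2%), and outside all parental libraries for 2 of 39 (background 11.5%), namely Grin3b and Grin1.

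For GABA, Gabra2 and Gabra3 made up most of the GABA-A alpha level per kb. Gabra2 (alpha2) stood at 20.9 ± 12.4 CPM per kb in 129, 8.65 ± 4.62 in CAST and 8.20 ± 4.80 in hybrid, and made up 61.4 ± 8.38%, 53.8 ± 3.81% and 50.3 ± 7.51% of the alpha level analysed. Gabra3 (alpha3, X-linked) followed at 10.8 ± 5.51, 6.46 ± 3.03 and 7.27 ± 5.34 CPM per kb, with shares of 34.2 ± 7.55%, 42.1 ± 4.37% and 43.4 ± 6.79%. Gabra4 (alpha4), at 0.776 ± 0.317, 0.412 ± 0.283 and 0.488 ± 0.127 CPM per kb, was far below them, and Gabra6, known from cerebellar granule cells, had 0 or 1 count per library.

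Gabrb1, the beta1 gene, stood at 6.18 ± 3.84 CPM per kb in 129, 2.57 ± 1.76 in CAST and 2.0 ± 0.770 in hybrid. Gabrb2, the beta2 gene, had low hybrid values relative to 129. It read 7.56, 7.81 and 19.1 CPM in 129, 1.45, 6.12 and 13.3 CPM in CAST, and 2.76, 1.26 and 1.19 CPM in hybrid. All hybrid libraries were below all 129 libraries (-2.71 ± 0.79, edgeR adjusted p = 0.0825), while CAST 1 lay within the hybrid range. DESeq2 called this difference (adjusted p = 0.00540) and limma-voom did not (adjusted p = 0.106). The edgeR fit called it with only the 129 and hybrid libraries, without CAST 1 and with the exon length offset. In 13 of 20 alternative settings the count of receptor genes called in hybrid against 129 was that of the main fit, where Gabrb2 was not called. Gabrb2 has no exonic overlap with another gene.

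Among the gamma subunits, which place GABA-A receptors at synapses and confer benzodiazepine sensitivity, Gabrg3 stood at 3.48 ± 1.80 CPM per kb in 129, 2.96 ± 1.88 in CAST and 2.05 ± 0.120 in hybrid, and Gabrg1 at 2.76 ± 1.52, 1.27 ± 1.03 and 2.03 ± 0.390 CPM per kb. The order of these 2 in CAST and hybrid is within their spread. Many GABA-A genes lie in clusters: Gabrg1, Gabra2, Gabra4 and Gabrb1 on chromosome 5, and Gabra6 and Gabrb2 on chromosome 11. Every one of the 10 tested GABA-A genes had a negative fitted value in CAST against 129 (median -0.82) and in hybrid against 129 (median -0.86), and 4 of 10 were positive in hybrid against CAST (median -0.22).

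The GABA-B receptor genes were abundant in all 3 lines. Gabbr1, which encodes the ligand-binding subunit, read 245, 350 and 555 CPM in 129, 548, 534 and 377 CPM in CAST, and 282, 262 and 563 CPM in hybrid. It was the highest receptor gene per kb, at 49.3 ± 20.3, 62.6 ± 12.2 and 47.5 ± 21.7. Gabbr2, whose product carries the pair to the membrane and couples it to G proteins, read 106, 143 and 241 CPM in 129, 136, 151 and 121 CPM in CAST, and 81.6, 84.4 and 201 CPM in hybrid. The libraries of the 3 lines overlap for both genes.

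In the test, Gabbr1 had log2 fold changes of 0.34 ± 0.48 in CAST against 129 (edgeR adjusted p = 0.710) and -0.05 ± 0.48 in hybrid against 129 (edgeR adjusted p = 0.949), and of -0.40 ± 0.48 in hybrid against CAST (edgeR adjusted p = 0.811) and -0.23 ± 0.42 against the midparent (edgeR adjusted p = 0.799). Gabbr2 had -0.26 ± 0.47 (edgeR adjusted p = 0.771), -0.41 ± 0.47 (edgeR adjusted p = 0.584), -0.15 ± 0.47 (edgeR adjusted p = 0.937) and -0.28 ± 0.41 (edgeR adjusted p = 0.742) in the same order. With SEs of this size the lines are not shown to be alike.

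Glycine receptors of the spinal cord pair alpha subunits with the beta subunit, which binds gephyrin. Glrb, the beta gene, stood at 13.0 ± 4.43 CPM per kb in 129, 11.0 ± 0.535 in CAST and 7.81 ± 3.79 in hybrid. Of the alpha genes, Glra2, the embryonic form, stood at 6.68 ± 3.75, 5.11 ± 3.84 and 5.38 ± 5.21 CPM per kb and held 52.2 ± 15.8%, 75.1 ± 21.4% and 63.6 ± 23.4% of the alpha level. Glra3 stood at 1.28 ± 0.873, 0.677 ± 0.541 and 0.346 ± 0.199 CPM per kb. The lines overlap for these 3 genes, and 0 of the 4 tested glycine receptor genes passed in any comparison by edgeR, DESeq2 or limma-voom, or had an unadjusted p under 0.05.

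Glra1, the adult spinal alpha form, read 18.3, 6.52 and 7.64 CPM in 129, 0.206, 2.98 and 6.52 CPM in CAST, and 2.62, 4.47 and 1.61 CPM in hybrid. All CAST and hybrid libraries were below the 129 libraries, by less than the rounding for CAST 3, and the log2 fold changes did not pass (-1.73 ± 0.90, edgeR adjusted p = 0.391, and -1.92 ± 0.91, edgeR adjusted p = 0.247). Glra4, an X-linked gene with no known role that is certain here, was below the filter, with 1, 1 and 0 counts in 129, 0, 1 and 2 in CAST and 17, 8 and 3 in hybrid. The hybrid level was 20.4-fold that of 129 (95% counting interval 5.14 to 176, from 2 counts) and 10.9-fold that of CAST (95% counting interval 3.36 to 55.8, from 3 counts). It has no exonic overlap. Without the filter edgeR called it higher in hybrid than the midparent, but did not call it in hybrid against 129 or in hybrid against CAST.

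**Figure D5:**
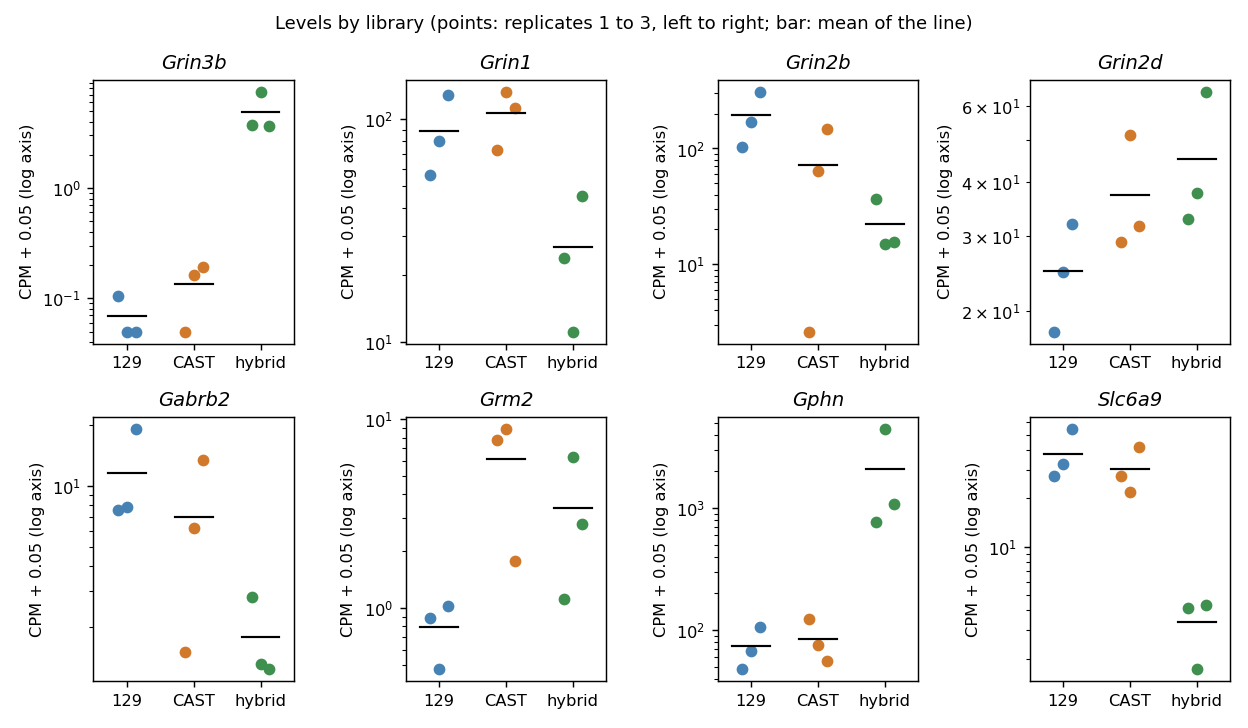
Levels of 6 receptor genes, of the scaffold gene Gphn and of the glycine transporter gene Slc6a9 in the 9 libraries, as CPM + 0.05 on a log axis; points are libraries and bars are means of 3. The 3 hybrid libraries lie apart from all 6 parental libraries for Grin3b (3.56 to 7.40 CPM), Grin1 (11.0 to 45.1 CPM), Gphn (765 to 4442 CPM) and Slc6a9 (1.68 to 4.26 CPM).

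Genes that serve these receptors were looked at in 8 lists, and 2 of their genes passed by edgeR, 1 higher and 1 lower in hybrid. Of the 15 tested scaffold and trafficking genes of GABA and glycine receptors, 1 passed in each hybrid comparison, a share near the background of 7.02% against 129, 6.00% against CAST and 7.34% against the midparent. This was Gphn, higher in hybrid, encoding gephyrin, the protein that holds both receptors at the synapse. Gphn read 48.0, 66.9 and 105 CPM in 129, 124, 75.0 and 55.3 CPM in CAST, and 765, 4442 and 1086 CPM in hybrid. The hybrid libraries were above all parental libraries, with a range among themselves wider than that between the parental lines. The log2 fold change was 4.84 ± 0.83 against 129 (edgeR adjusted p = 0.00731), 4.63 ± 0.82 against CAST (edgeR adjusted p = 0.00873) and 4.73 ± 0.62 against the midparent (edgeR adjusted p = 0.00109). Without 129 2 the call against 129 was lost (4.75, edgeR adjusted p = 0.0506). Of its exonic bases, 3.92% lie under the antisense gene Gm48226. Among tested genes with above 0 to 30% overlap on the opposite strand, 7.36% were called higher in hybrid than in 129, against 3.30% with none. The part of overlap in the Gphn values was not tested.

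Of the 13 tested genes of GABA and glycine synthesis and transport, 1 passed in each hybrid comparison, likewise a share near the background. This was Slc6a9, lower in hybrid, encoding the glycine transporter GlyT1, which clears glycine from the extracellular space. It read 27.4, 32.5 and 54.1 CPM in 129, 27.4, 21.8 and 42.0 CPM in CAST, and 4.10, 1.68 and 4.26 CPM in hybrid. The log2 fold change was -3.48 ± 0.50 against 129 (edgeR adjusted p = 0.00289), -3.16 ± 0.49 against CAST (edgeR adjusted p = 0.00462) and -3.32 ± 0.47 against the midparent (edgeR adjusted p = 0.00165). Of its exonic bases, 30.3% lie under exons of B4galt2, Ccdc24 and Gm17114 on the opposite strand, and Gm17114 had 0 counts in all parental libraries and 13.3, 6.29 and 17.1 CPM in the hybrid libraries. Whether reads moved between these genes was not tested.

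The other 6 lists had 0 genes called by edgeR in any of the 4 comparisons. In hybrid against 129, the counts at an unadjusted p under 0.05 (background 22.2%) were 4 of 20 AMPA and kainate auxiliary genes (TARPs, cornichons, neuronal pentraxins, C1q-like proteins), 1 of 22 glutamatergic scaffold genes, 2 of 11 genes of glutamate synthesis and transport, 1 of 4 genes of neuronal chloride transport, 2 of 3 RNA editing enzymes and 1 of 2 tested other GABA-A and rho subunits. DESeq2 called 3, 0, 1, 0, 1 and 0 of them in the same order (background 14.2%), and limma-voom called 1 auxiliary gene (background 7.48%). In CAST against 129 the unadjusted counts were 3 auxiliary genes and 1 scaffold gene, and 0 in the other 4 lists (background 14.6%). DESeq2 called 2 auxiliary genes there (background 6.34%) and limma-voom 0 (background 1.58%). The median log2 fold changes of these lists in hybrid against 129 were -0.53, -0.14, 0.13, -0.65, -1.09 and -0.69, beside 0.02 for all tested genes. The lowest adjusted p among them was that of C1ql3, which encodes a synaptic C1q-like ligand, at 54.5, 55.2 and 53.3 CPM in 129, 8.26, 25.4 and 43.9 CPM in CAST and 9.13, 5.87 and 17.8 CPM in hybrid (-2.31 ± 0.61, edgeR adjusted p = 0.0553; DESeq2 adjusted p = 0.00297; limma-voom adjusted p = 0.0485).

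Markers of cells other than motor neurons were read beside these results. Markers of inhibitory interneurons (7 genes), a cell type that also expresses these receptors, summed to 96.6 to 143 CPM in 129, 84.7 to 118 CPM in CAST and 62.3 to 64.7 CPM in hybrid, so the hybrid libraries were the lowest, as for Grin1. Those of excitatory interneurons (5 genes) summed to 55.6 to 108 CPM, 31.2 to 90.4 CPM and 34.5 to 117 CPM and overlapped. Of the 3 tested genes of that list, edgeR called 1 higher in CAST against 129 (adjusted p = 0.0412, background 0.917%). It also called 1 higher in hybrid against 129 (adjusted p = 0.0330, background 7.02%). The list medians were -0.43 (1 of 3 positive) and 0.57 (2 of 3 positive). Microglial markers (5 genes) summed to 9.94 to 17.3 CPM in 129, 9.46 to 25.8 CPM in CAST and 55.0 to 73.3 CPM in hybrid, with Cx3cr1 at 19.1 to 35.3 CPM in hybrid against at most 1.34 CPM in the parental libraries, where it was at 0 in 129 3 and CAST 3. Oligodendrocyte lineage markers (6 genes) summed to 60.3 to 121 CPM, 6.40 to 27.8 CPM and 28.9 to 66.5 CPM. Of these, the myelin gene Mog read 5.59 to 22.5 CPM in hybrid, 0.556 CPM in 129 1 and 0 in the other 5 parental libraries. The rest of that list went the other way against 129: 1 of its 5 tested genes, Mog, had a positive log2 fold change in hybrid against 129 (median -1.44), and 3 of 5 did in hybrid against CAST (median 0.51). Astrocyte and radial glia markers (7 genes) summed to 315 to 872 CPM, 517 to 1296 CPM and 823 to 1502 CPM, with Gfap at 76.6 to 305 CPM in hybrid against 2.17 to 27.0 CPM in the parental libraries. Of these 7 genes, 4 were positive in hybrid against 129 (median 0.38) and 2 in hybrid against CAST (median -0.86). Cx3cr1, Mog and Gfap were higher in all hybrid libraries than in all parental libraries, as Grin3b and Gphn were, whereas Slc6a9 was lower in all of them. The part of these cell types in those results was not tested.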

How the data were processed

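Poly-A-selected RNA was sequenced from 9 libraries, 3 per line; per the labels, column-purified RNA was DNase-treated and cDNA was made with random hexamers. STAR and mm10 come from the submitters' processing notes; no source used here gives the counting tool, its annotation or its strand setting. The matrix as deposited holds raw read counts per Ensembl gene, made by the authors. IDs were matched to GENCODE vM21 symbols (27030 matched, 41 did not), which also gave exon length and overlap. CPM used TMM library sizes. Genes were kept by edgeR's filterByExpr (minimum count 10), and 1 quasi-likelihood model (edgeR 4.0.16, R 4.3.3) was fitted to all 9 libraries and 14839 genes, with Benjamini-Hochberg adjustment over all genes and a threshold of 0.05. DESeq2 1.42.0 and limma-voom (limma 3.58.1) were alternatives, with other filters, scalings, an exon length offset (spline with 4 degrees of freedom), a replicate block and each library left out. The scripts were tested on simulated data. "No overlap" means that every library of a group lies beyond every library of the other.

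The members and lists were chosen with earlier results of these data known. By rule, receptor genes are named with their level; fold changes are given for those that passed and, where fewer than 3 did, for the genes with the highest mean CPM. Up to 3 called genes per list and direction are named. Other genes given with a fold change (those whose libraries do not overlap or that DESeq2 called, and C1ql3) were chosen after their values were seen. Further CAST libraries were not analysed here, and some receptor genes that enter the counts are not reported here by name.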

Additional observations from a re-analysis of the deposited data

How the results depend on the processing

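Grin3b entered each filtered fit only through its hybrid counts. It was past the threshold in all 3 hybrid comparisons under every other setting in which it was tested, with log2 fold changes of 6.74 to 9.06 against 129, 4.80 to 5.97 against CAST and 5.94 to 7.31 against the midparent. Slc6a9 kept its call in each of these as well, and Gphn lost it with the replicate block against CAST (adjusted p = 0.0535) and without 129 2 against 129. The counts of receptor genes past the threshold were less stable. With DESeq2 they were 1 in CAST against 129, 5 in hybrid against 129, 2 in hybrid against CAST and 4 against the midparent. The DESeq2 shares over all tested genes were 6.34%, 14.2%, 10.8% and 12.1% in the same order. limma-voom gave 2 against the midparent (background 7.75%). No filter on low counts also gave 2 there (Grin3b and Glra4), beside 1308 of 21423 genes in all. Fitting only 2 groups gave 3 of 39 in hybrid against 129, beside 1186 of 14595 genes in all, and could not be done for the midparent. Without both CAST 1 and hybrid 2 there were 2 in hybrid against 129. The exon length offset gave 2 in hybrid against 129 and 2 in hybrid against CAST. For these last 2 settings the share over all genes in the hybrid comparisons is not given here, so their counts cannot be set against it. With only genes without exonic overlap, chosen after the data were seen, the count was 0 in each hybrid comparison because Grin3b was no longer tested.

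Leaving out 1 library at a time gave 0 to 0 receptor genes in CAST against 129, 1 to 4 in hybrid against 129, 1 to 2 in hybrid against CAST and 1 to 5 against the midparent. The calls over all genes in these fits also varied and are given below. Without CAST 1 edgeR called Gabrb2, Grin2b, Glra4 and Grin3b in hybrid against 129. Without hybrid 3 edgeR called Glra4 and Grin3b there, and Grin1 and Grin3b in hybrid against CAST. The calls over all genes are given only as ranges over these fits. These receptor counts are therefore not set against a share and are not read as a result about the receptor genes. Glra4 was below the filter in the main fit and was tested here only because the filter changed with the libraries. It entered through its hybrid counts alone, since each parental library held at most 2, so its calls do not show dependence on the library left out. The median over the receptor genes in hybrid against 129 ran from -0.93 (without hybrid 3) to -0.06 (without 129 3), and in hybrid against CAST from -0.52 (without hybrid 3) to -0.0034 (without CAST 2).

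With the replicate number as a block, the counts of receptor genes were 0, 1, 1 and 1, as without it, while the calls over all genes went from 136, 1041, 891 and 1089 to 6, 561, 526 and 776. The numbers did not pair the samples: 2 of 9 correlations between same-numbered libraries were over 0.1, and they ran from -0.72 to 0.49. The exon length offset with the block gave 0, 1, 1 and 1. Over all genes, edgeR called 136 in CAST against 129, while DESeq2 called 939, limma-voom 234, the exon length offset 301 and fits without 1 library 26 to 157. In hybrid against 129, against CAST and against the midparent, DESeq2 called 2100, 1597 and 1790, and fits without 1 library called 522 to 1717, 643 to 923 and 884 to 1850. With 3 libraries a line, the SE of a receptor gene's log2 fold change had a median of 0.64 in CAST against 129 and 0.65 in hybrid against 129, which limits what could be detected.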
